A study of Mus musculus with 10 samples.

Results

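The T-cell receptor alpha V segments are the genes on mouse chromosome 14 whose symbol starts with Trav, 130 of the 49997 genes of the RefSeq table of GRCm38.p6. They span chr14:52427967-53977678 in mm10, 1550 kb, and fall into 23 numbered families. Of the 130, 114 are annotated as V segments and 16 as V segment pseudogenes. Peaks belonged to them when the summit lay in a segment or within 5 kb of one, each peak counted once. By this rule 76 of 88159 peaks belonged to them in del/del females, 39 of 88159 in fl/fl females, 67 of 88159 in del/del males and 32 of 88159 in fl/fl males. The segments were chosen by the measured number and strength of their peaks, which had been seen to differ between del/del and fl/fl lists, so those differences are described here and not tested.

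Open chromatin was mapped by ATAC-seq, an assay based on adapter insertion by Tn5 transposase, in C57BL/6 mouse neural stem cell lines made from E14.5 embryos with floxed Smchd1 alleles. Smchd1 is a chromatin protein of the SMC family known for its part in gene silencing on the inactive X chromosome and at some autosomal gene clusters. The groups were Smchd1 del/del females with 3 libraries, Smchd1 fl/fl females with 3, Smchd1 del/del males with 2 and Smchd1 fl/fl males with 2. Per the labels, the lines were transduced with a retrovirus carrying Cre and a puromycin cassette (MSCV-Cre-puro), put under puromycin at 24 h and harvested at 7 days. The same text stands with all libraries, and no source read here tells whether a vector was also given to fl/fl cells. The libraries of a group were pooled into 1 peak list, so no value below has a replicate error, and intervals are 95% exact binomial intervals that cover counting error only.

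The alpha chain of the T-cell receptor is assembled in developing T cells, where the RAG recombinase joins 1 V segment to 1 J segment, and the product is spliced to a single constant region. Each V segment has its own promoter just before its leader exon, and this promoter is used in T-lineage cells. In mice of this strain a large part of the V array is repeated, and copies of a segment are told apart by the letter d, the letter n or no letter after the family number, as in Trav10d, Trav10n and Trav10. Neural stem cells carry the locus unrearranged and are not known to use it. No sequence of a Trav segment or its promoter is printed, since the sequence tables used here hold none.

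The lists rested on 139318421 tags in del/del females, 144613215 in fl/fl females, 74674218 in del/del males and 91734730 in fl/fl males, with tag sizes of 63, 53, 59 and 62 bp in that order. As the lists differ in length, the 88159 peaks with the highest −log10 q of each were compared, 88159 being the length of the shortest. The weakest peak kept had a −log10 q of 4.27 in del/del females, 6.59 in fl/fl females, 1.39 in del/del males and 4.52 in fl/fl males. Of 12 neural stem cell markers, 11, 10, 11 and 11 had a peak within 1 kb of a gene end in these lists. Of 14 T-cell markers 3, 3, 2 and 2 did, namely Cd247 and Cd4 in all 4, Cd5 in fl/fl females alone and Ptcra in del/del females alone. Cd3e, Cd3d, Cd3g, Cd8a, Cd8b1, Lck, Zap70 and Trac had no end peak in any list, none of 5 microglia and blood markers had one, and of 5 B-cell markers Cd79b and Pax5 had one in del/del males alone.

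In both sexes the V segments carried more peaks in the del/del list than in the fl/fl list. Females had 76 peaks in the del/del list and 39 in the fl/fl list, a ratio of 1.95 (1.31 to 2.95). Males had 67 peaks in the del/del list and 32 in the fl/fl list, a ratio of 2.09 (1.35 to 3.30). Lists of the same genotype differed less: del/del females had 1.13 times (0.806 to 1.60) as many as del/del males, and fl/fl females 1.22 times (0.744 to 2.01) as many as fl/fl males. The intervals within a genotype overlap those of the del/del to fl/fl ratios. As the segments were picked with that contrast known, nothing is read from the smaller differences within a genotype. Many peaks are in both lists of a pair, which the intervals ignore.

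The lists as deposited, where the fl/fl lists are the longer ones, had 84 Trav peaks of 104316 in del/del females and 57 of 130103 in fl/fl females, and 67 of 88159 in del/del males and 36 of 101322 in fl/fl males. At a −log10 q of at least 10 they had 53 of 53267 in del/del and 27 of 67907 in fl/fl females, and 29 of 47094 in del/del and 13 of 56781 in fl/fl males. The del/del lists thus had the larger number among strong peaks as well. On the rest of chromosome 14 the equal-length lists held 3694 and 3752 peaks in del/del and fl/fl females and 3693 and 3760 in del/del and fl/fl males. The 1 Mb before the first segment held 48 and 47 in del/del and fl/fl females, and the 1 Mb after the last held 67 and 72, so the neighbouring chromatin of females had similar peak numbers in both genotypes. In males these flanks held 52 and 48 before the array and 64 and 67 after it.

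**Figure D1:**
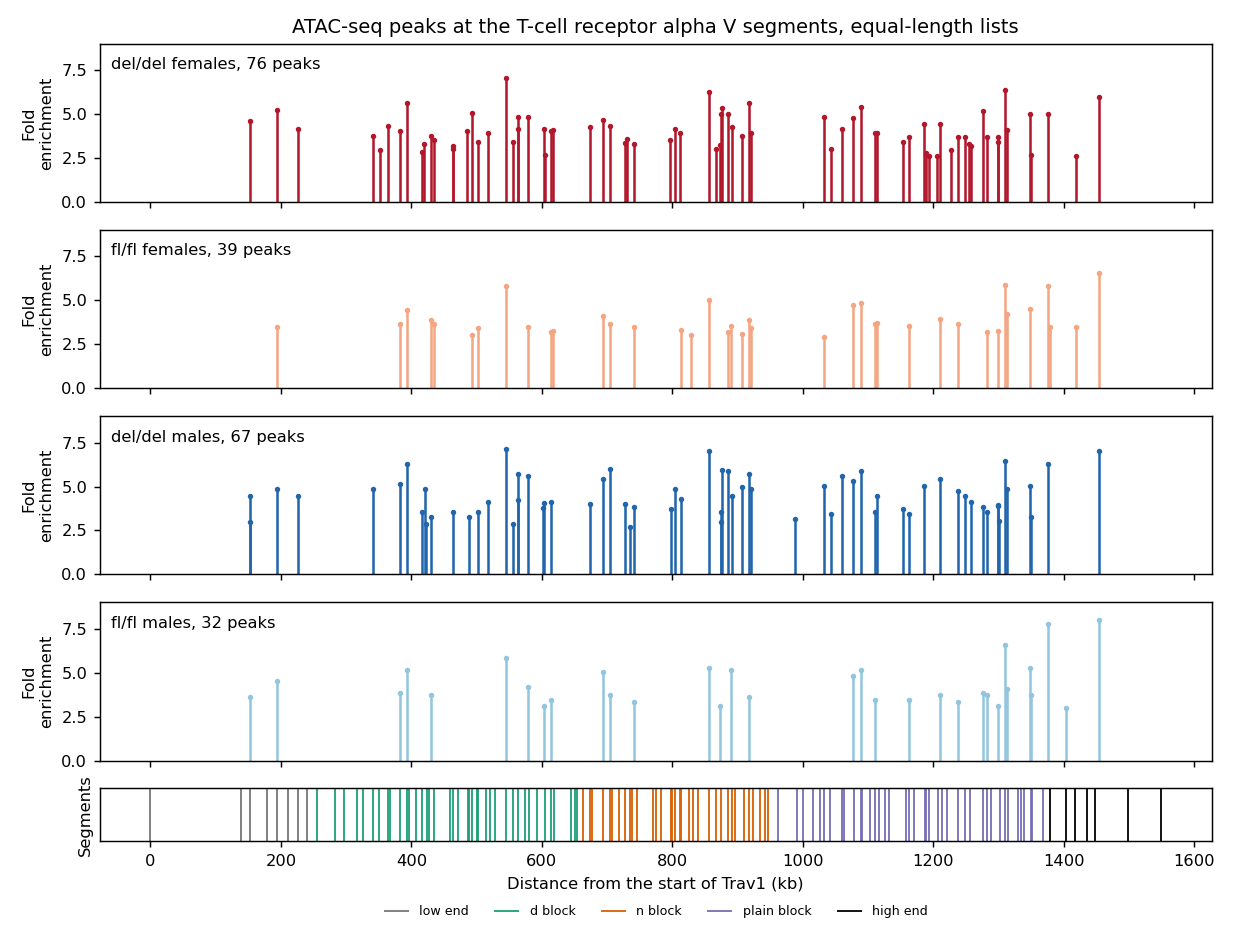
Peaks of the equal-length lists at the Trav segments, with the distance from the start of Trav1 in kb on the x axis and the authors' fold enrichment on the y axis, 1 panel per pooled list and segment starts in the lowest row. The 76 and 67 peaks of the del/del lists fill the middle of the array more densely than the 39 and 32 of the fl/fl lists, while the tall peaks at the right end stand in all 4 panels.

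Summits did not spread evenly around the segments but stood just before their low-coordinate end, the end away from the Traj and Trac genes. In del/del females 44 of 76 summits lay within 350 bp before the start of a segment, in fl/fl females 25 of 39, in del/del males 39 of 67 and in fl/fl males 22 of 32. The median position of these start peaks was -196 bp in del/del females, -165 bp in fl/fl females, -179 bp in del/del males and -168 bp in fl/fl males. Summits inside a segment numbered only 1, 0, 4 and 1 in that order, and 5, 8, 4 and 3 in the lists as deposited. Families stood at different places: in del/del females the strongest start peak of each Trav9 segment lay between -295 and -272 bp, with a second one at Trav9d-2 at -23 bp, and those of Trav6 lay between -119 and -94 bp.

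**Figure D2:**
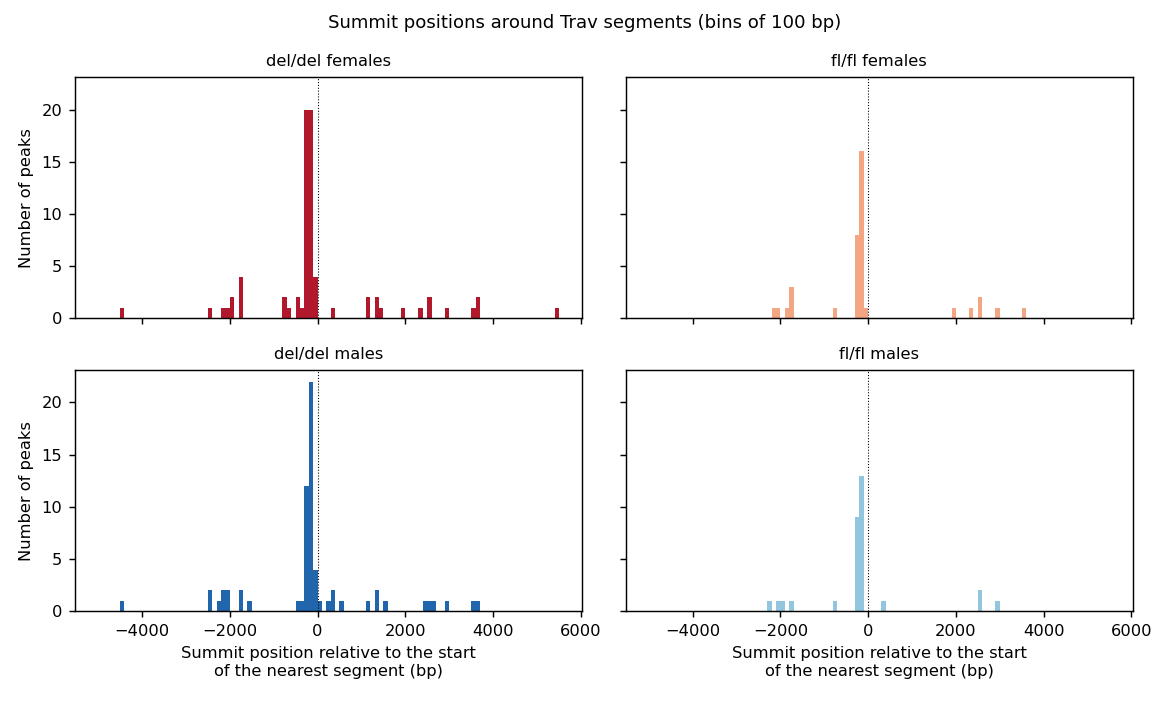
Summit position relative to the start of the nearest Trav segment in bp (x axis, bins of 100 bp) against the number of peaks (y axis), 1 panel per equal-length list. The tallest bars stand just before the start in every panel, and the window of 350 bp before the start holds 44 and 25 peaks in del/del and fl/fl females and 39 and 22 in del/del and fl/fl males.

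Of the 114 V segments 43 had a start peak in del/del females, 25 in fl/fl females, 39 in del/del males and 22 in fl/fl males, and of the 16 pseudogenes none had one in any list. This contrast rests on the window of 350 bp, which was chosen after the peaks were seen. Just beyond it, del/del females had peaks at -411 bp of Trav5d-2, -373 bp of Trav5n-2 and -414 bp of Trav5-2, all pseudogenes, and del/del males had one at -402 bp of Trav5-2. In both del/del lists 36 segments had a start peak, in both fl/fl lists 19, and all 19 were also among the 36. Another 11 had one in both del/del lists and in neither fl/fl list, and 0 the reverse. No start peak stood in any list at 82 of the 130 segments. Among these were Trav1, used by the MAIT cells of mice, and the copies of Trav11, used by their invariant natural killer T cells.

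For 5 segment numbers, Trav10, Trav6-6, Trav3-3, Trav6-7 and Trav8-2, all 3 copies carried a start peak in all 4 lists. The Trav10d peak had a fold enrichment, the authors' pileup over local background for each peak, of 4.02 in del/del females, 3.65 in fl/fl females, 5.15 in del/del males and 3.83 in fl/fl males. At Trav10n the values were 4.68, 4.13, 5.44 and 5.02 in the same order, and at Trav10 they were 4.76, 4.76, 5.29 and 4.79. These peaks were thus present in both genotypes.

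The strongest start peak of both del/del lists was that of Trav3d-3, at chr14:52972291-52972706 in del/del females. Its fold enrichment was 7.06 in del/del females and 5.79 in fl/fl females, and 7.15 in del/del males and 5.86 in fl/fl males. It ranked 11791 in del/del and 27226 in fl/fl females, and 21337 in del/del and 32746 in fl/fl males. The copy Trav3n-3 had 6.24 and 5.00 in del/del and fl/fl females and 7.01 and 5.26 in del/del and fl/fl males. At the third copy, Trav3-3, the values were lower, 3.70 and 3.65 in del/del and fl/fl females and 4.72 and 3.35 in del/del and fl/fl males, so copies of 1 segment differed in strength within every list. The Trav8-2 peak, the strongest start peak of both fl/fl lists, had 6.41 and 5.87 in del/del and fl/fl females and 6.44 and 6.58 in del/del and fl/fl males. Its copy Trav8n-2 had 5.67 in del/del and 3.89 in fl/fl females, and 5.72 in del/del and 3.59 in fl/fl males. The Trav6-6 peak had 5.42 and 4.84 in del/del and fl/fl females and 5.87 and 5.14 in del/del and fl/fl males.

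The Trav9 and Trav12 families had the widest contrasts in number, Trav9 in females and Trav12 in males. Start peaks stood at 10 of the 11 Trav9 segments in del/del females and at 2 in fl/fl females, and at 6 in del/del males and 1 in fl/fl males. The Trav9-1 peak, at chr14:53487691-53487929, had 4.19 in del/del females and 5.58 in del/del males and no peak in either fl/fl list. Trav9n-3 likewise had 4.19 in del/del females and 4.86 in del/del males and none in fl/fl lists. Trav9-2 had a start peak in all 4 lists, with 3.70 and 3.57 in del/del and fl/fl females and 3.43 and 3.47 in del/del and fl/fl males. Trav9d-3 had 5.09 and 3.02 in del/del and fl/fl females and none in either male list. Trav12 had start peaks at 7 of 10 segments in del/del females, 3 in fl/fl females, 7 in del/del males and 1 in fl/fl males.

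The Trav4 and Trav7 families had start peaks mainly in del/del lists. Trav4 had start peaks at 2 of 9 segments in each del/del list and at 0 in each fl/fl list, and Trav7 at 3 of 14 in each del/del list, 1 in fl/fl females and 0 in fl/fl males. Trav7-1, at the low end of the array, had 4.19 in del/del females and 4.43 in del/del males and no peak in either fl/fl list. Trav5-4 had 5.17 in del/del females and no peak in fl/fl females, while in males it had 3.86 in the del/del and 3.83 in the fl/fl list, so both male lists held it. Trav5n-4 had 5.01 and 3.17 in del/del and fl/fl females, and 5.87 in del/del males with none in fl/fl males. Trav6 had 6 of 15 in every list and Trav8 3 of 5 in every list. The families Trav2, Trav14, Trav15 and Trav16 had no start peak in any list, although Trav14, Trav15 and Trav16 had peaks farther out. One at -687 bp of Trav15d-1-dv6d-1 in del/del females, for instance, had 3.53 in del/del females and 3.65 in fl/fl females.

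**Figure D3:**
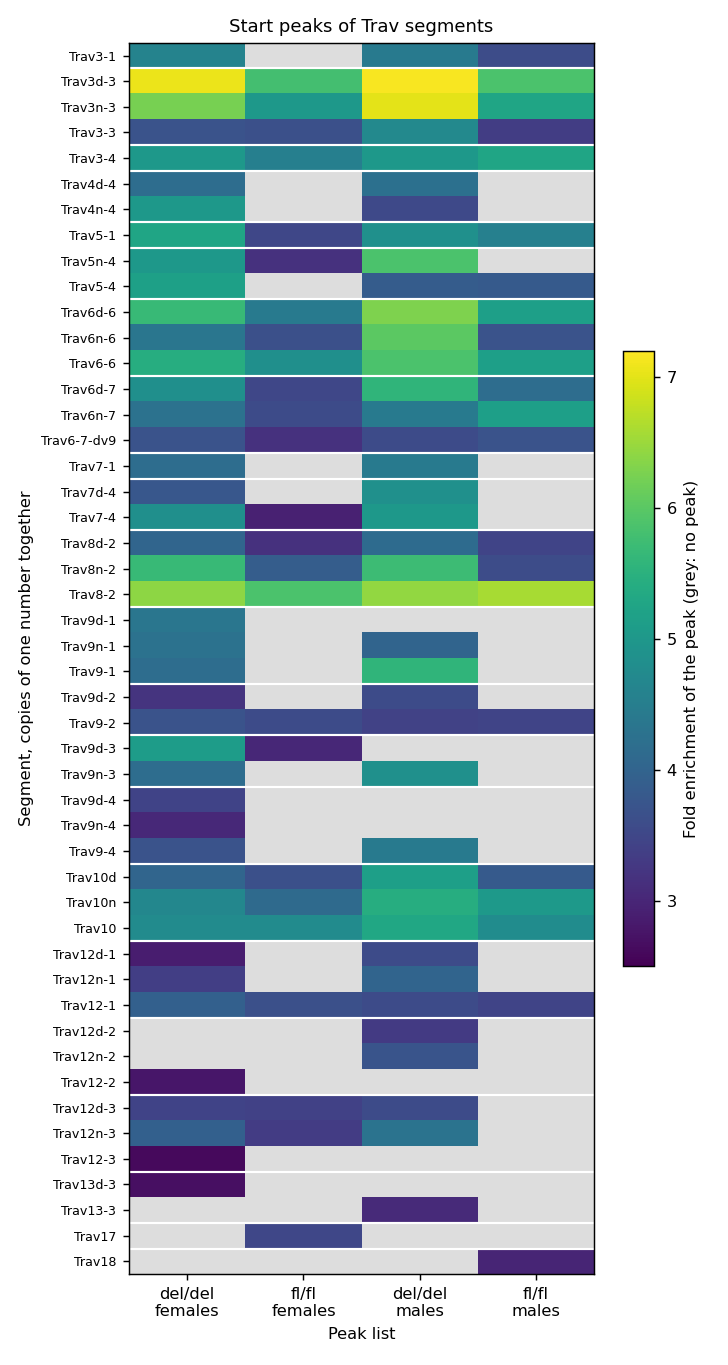
Fold enrichment of the strongest peak within 350 bp before each segment's start (colour; grey for no peak) in the 4 equal-length lists (columns), for the segments that have such a peak in at least 1 list (rows), with copies of 1 segment number set together between white lines. Rows of Trav10, Trav6-6, Trav3-3, Trav6-7 and Trav8-2 are filled in all 4 columns. Most Trav9, Trav12, Trav4 and Trav7 rows are filled in at least 1 del/del column and grey in both fl/fl columns. Several of these, such as Trav12d-2 and Trav9d-1, are filled in 1 del/del column alone.

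A peak was called gained when it stood in the del/del list among the 44079 strongest and overlapped no peak of the equal-length fl/fl list, and lost in the reverse case. At the Trav segments this held in females for 15 of 43 candidates, a share of 34.9% (21.0 to 50.9), where 1.13% of all candidates were gained. In males 11 of 29 were gained, or 37.9% (20.7 to 57.7), where 0.837% of all candidates were. Lost peaks numbered 0 of 8 in females, where 0.440% of all candidates were lost, and 0 of 10 in males, where 1.09% were. These counts allow lost shares of up to 36.9% and 30.8%, so losses could not be detected well with so few strong peaks in fl/fl lists. Gained counts depended on the limit of strength. Each list was also cut to its 44079 strongest peaks, and candidates to the stronger ones among these. The same rule then called 2 in females and 0 in males. The 2 were the start peaks of Trav6d-6 and Trav8n-2, which ranked 44620 and 55757 in fl/fl females. All 4 equal-length lists held both of these, and none of the 15 was called under that cut. Since the segments were picked with this contrast known, nothing is read from the distance to the shares over all peaks.

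Gained in both sexes were 5 Trav peaks, where 0.306% of all candidates of females were. The strongest lay 1373 bp after the start of Trav4n-4 in del/del females, at chr14:53303285-53303576 over both del/del lists, with fold enrichments of 5.34 in del/del females and 5.95 in del/del males. The second lay at the same place beside the copy Trav4d-4, at chr14:52992148-52992411, with 4.85 in del/del females and 5.72 in del/del males. Its summit stood 1355 bp after the segment start in del/del females, so the copies match in position. The other 3 were the start peaks of Trav9-1 and Trav9n-3 and a peak 414 bp before the pseudogene Trav5-2, with 4.44 in del/del females and 5.01 in del/del males. None of these 5 had even a weaker peak in the fl/fl lists as deposited.

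Other strong gains were called in 1 sex. In females they included the start peak of Trav4n-4, with 5.00 in del/del females and none in fl/fl females, and with 3.54 in del/del males and none in fl/fl males. The Trav3-1 start peak had 4.60 in del/del females and none in fl/fl females, and 4.43 in del/del males and 3.59 in fl/fl males. In males the start peak of Trav7-4 had 5.01 in the del/del list and none in the fl/fl list, while del/del females had 4.85 and fl/fl females 2.94. A peak 2036 bp before Trav13n-3 had 4.96 in del/del males and a weak 2.63 in fl/fl males, and 3.74 in del/del females and 3.10 in fl/fl females.

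Without the limit to strong peaks, 38 of 76 Trav peaks of del/del females overlapped no peak of the fl/fl female list, where 15.3% of all peaks did. In males 37 of 67, or 55.2%, were absent from the fl/fl list, where 16.9% of all peaks were. Of the Trav peaks of fl/fl females, 2 of 39 were absent from the del/del list, where 16.9% of all peaks were, and of fl/fl males 2 of 32, where 18.7% were. Peaks absent from both fl/fl lists and shared by both del/del lists numbered 20 of 76, or 26.3%, where 3.50% of all peaks were. Merged over the lists, the peaks formed 87 sites, of which 26 were in all 4 lists and 20 in both del/del lists alone. Of the 87, 3 were in a fl/fl list and in neither del/del list, and 43 were the reverse. Among the 3 were the start peaks of Trav17 in fl/fl females and of Trav18 in fl/fl males. The longer deposited list of del/del females holds a weaker Trav17 start peak, with a fold enrichment of 2.55. In the lists as deposited, 11 sites were in a fl/fl list and in neither del/del list, and 39 were the reverse. The number of sites found in fl/fl lists alone thus depends on the cut to equal length.

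Peaks that both genotypes shared also ranked higher in del/del lists. In females 38 Trav peaks of the del/del list overlapped a fl/fl peak, and 35 of them, or 92.1%, had the better rank in the del/del list, where 47.0% of all overlapping peaks did. Their median rank was 38563.5 in del/del females and 61734.5 in fl/fl females. In males 24 of 30, or 80.0%, had the better rank in the del/del list, where 49.0% of all overlapping peaks did, with median ranks of 40240 in del/del males and 62835.5 in fl/fl males. Over all Trav peaks of the equal-length lists the median rank was 42989.5 in del/del females and 61736 in fl/fl females, and 47542 in del/del males and 64301 in fl/fl males. Of the Trav peaks 43 were among the 44079 strongest in del/del females, 8 in fl/fl females, 29 in del/del males and 10 in fl/fl males.

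**Figure D4:**
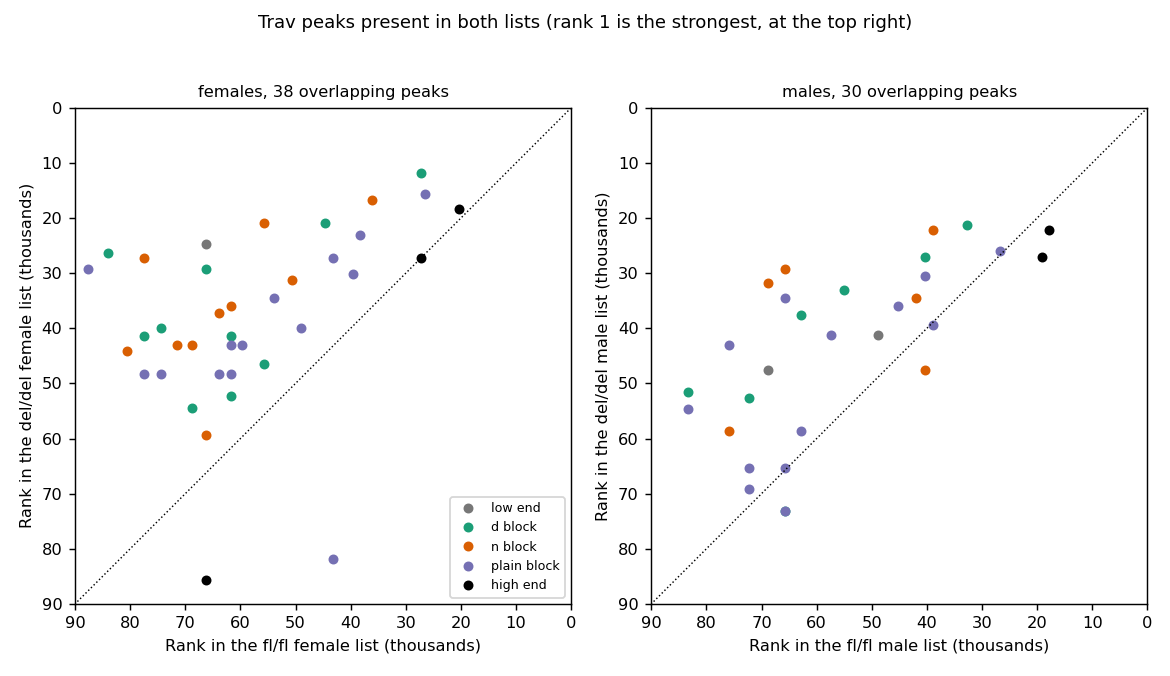
Ranks of Trav peaks in the del/del list (y axis, in units of 1000) against the rank of the overlapping fl/fl peak (x axis, in units of 1000), females at the left and males at the right, with rank 1 the strongest and the dotted line marking equal ranks. Points above the line rank better in the del/del list, 35 of 38 in females and 24 of 30 in males, and the high-end points in black lie on or below it except 1 in females.

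Along the array the larger numbers of the del/del lists were counted in its repeated middle. The 40 segments with the letter d had 24 peaks in del/del females and 10 in fl/fl females, and 19 in del/del males and 7 in fl/fl males. The 34 with the letter n had 19 in del/del and 11 in fl/fl females, and 18 in del/del and 7 in fl/fl males. The 41 segments without a letter that lie after these blocks, up to Trav13-5, had 27 and 13 in del/del and fl/fl females and 24 and 13 in del/del and fl/fl males. At the low end, the 8 segments from Trav1 up to Trav6-2 had 3 and 1 in del/del and fl/fl females and 4 and 2 in del/del and fl/fl males. At the high end, the 7 segments from Trav17 to Trav23 had 3 peaks in del/del females and 4 in fl/fl females, and 2 in del/del males and 3 in fl/fl males. This split of the array was made after the peaks had been seen, and the counts at both ends are too small to compare.

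Both strong peaks of the high end were present in all 4 lists. The peak about 2.2 kb before Trav17, at chr14:53804111-53804764, had fold enrichments of 5.01 in del/del females and 5.79 in fl/fl females, and of 6.29 in del/del males and 7.78 in fl/fl males. The peak nearest to Trav21-dv12 stood 65 bp before the start of Trdv1, a V segment of the T-cell receptor delta chain, in del/del females. It had 6.00 in del/del females and 6.59 in fl/fl females, and 7.01 in del/del males and 8.02 in fl/fl males. The ranks of the Trav17 peak were 27270 and 27227 in del/del and fl/fl females and 27070 and 19154 in del/del and fl/fl males, so it did not rank better in a del/del list. The Trdv1 peak lay 4795 bp from Trav21-dv12 in del/del females, just inside the limit of 5 kb. Just outside it, a peak 5135 bp from Trav15-1-dv6-1 in del/del females was present in all 4 lists, with 4.48 in del/del females, 5.45 in fl/fl females, 4.52 in del/del males and 6.17 in fl/fl males.

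**Figure D5:**
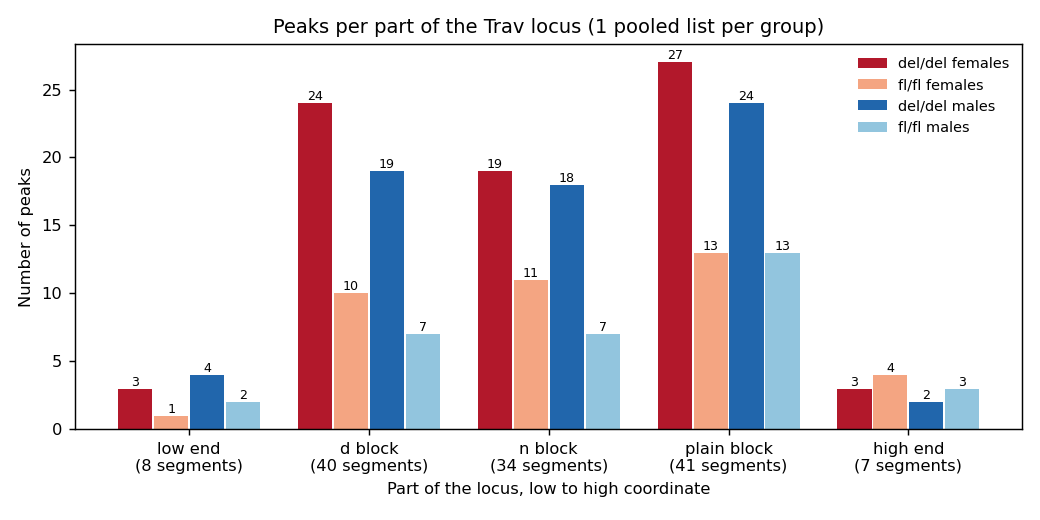
Number of peaks (y axis) in 5 parts of the Trav array from low to high coordinate (x axis, with the number of segments), for the 4 equal-length lists, 1 bar per pooled list without error bars. The d block holds 24 and 10 peaks in del/del and fl/fl females, and the high end 3 and 4.

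Copies of a segment carried their peaks at nearly the same place. Segment numbers with more than 1 copy made up 112 of the 130 segments, and the distance between copies was 290 to 321 kb from d to n (34 pairs, median 311 kb) and 370 to 395 kb from n to the copy without a letter (32 pairs, median 386 kb). Where a number had a start peak in more than 1 copy or list, the summits, taking the strongest start peak of each segment and list, spread over a median of 29 bp and at most 75 bp (16 numbers). The second start peak of Trav9d-2 in del/del females is outside this count. The 12 start peaks of Trav10 stood from -206 to -190 bp, the 12 of Trav3-3 from -141 to -126 bp and the 12 of Trav6-6 from -128 to -107 bp. When each peak was shifted by the distance between copies, a peak of the same list lay within 500 bp for 60 of 68 peaks in del/del females, or 88.2% (78.1 to 94.8). The share was 24 of 33 in fl/fl females, or 72.7% (54.5 to 86.7), 48 of 59 in del/del males, or 81.4% (69.1 to 90.3), and 19 of 25 in fl/fl males, or 76.0% (54.9 to 90.6). These intervals overlap, and a list with more peaks offers more partners.

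Nearly all of the difference in number stood at segments that have copies, which are 112 of the 130. The 18 without a copy include all 8 segments of the low end and all 7 of the high end. Having copies and lying in the middle of the array thus cannot be told apart here. Peaks nearest to segments with copies numbered 68 in del/del females and 33 in fl/fl females, and 59 in del/del males and 25 in fl/fl males. Peaks nearest to the 18 segments without a copy numbered 8 and 6 in del/del and fl/fl females and 8 and 7 in del/del and fl/fl males, ratios of 1.33 (0.406 to 4.66) and 1.14 (0.362 to 3.70). When all copies of a number counted once, 20 of 58 numbers had a start peak in del/del females and 14 in fl/fl females, and 20 in del/del males and 12 in fl/fl males, ratios of 1.43 (0.686 to 3.06) and 1.67 (0.776 to 3.74). Among the 32 numbers with 3 copies, the start peak stood in all 3 for 9 numbers in del/del females, 5 in fl/fl females, 6 in del/del males and 5 in fl/fl males. Reads from near-identical copies can be exchanged between them, and the placement of such reads is nowhere described in the sources, so peaks of different copies may not be separate sites, and the part of this in the result was not tested. Tag sizes moved with genotype in females, 63 bp in del/del and 53 bp in fl/fl, and the other way in males, 59 bp in del/del and 62 bp in fl/fl. Whether tag size has a part in the number of Trav peaks was not tested.

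The other genes of the T-cell receptor alpha and delta locus had few peaks, in similar numbers in both genotypes. The 60 Traj segments, the J segments of the alpha chain, had 0 peaks in del/del females, 1 in fl/fl females, 0 in del/del males and 0 in fl/fl males, and Trac, the constant region, had 1 in each list. The 11 Trd genes of the delta chain had 4 and 5 in del/del and fl/fl females and 4 and 4 in del/del and fl/fl males, and Dad1, the housekeeping gene after Trac, had 3 in each list. The peak just before Trdv1 is among the Trd peaks of every list and was also counted among the Trav peaks. These counts are small, and the difference from the Trav segments was not tested.

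Other arrays of V segments and of receptor genes were set beside the Trav segments. The 348 immunoglobulin V segments had 46 peaks in del/del females and 32 in fl/fl females, a ratio of 1.44 (0.896 to 2.33), and 42 in del/del males and 36 in fl/fl males, 1.17 (0.730 to 1.87). The 35 Trbv segments, of the T-cell receptor beta chain, had 9 and 5 in del/del and fl/fl females and 8 and 6 in del/del and fl/fl males. The 126 Vmn2r genes, vomeronasal receptors, had 32 and 24 in del/del and fl/fl females, 1.33 (0.761 to 2.37), and 32 and 31 in del/del and fl/fl males, 1.03 (0.610 to 1.75). The 1428 Olfr genes, olfactory receptors, had 135 and 111 in del/del and fl/fl females, 1.22 (0.939 to 1.58), and 116 and 103 in del/del and fl/fl males, 1.13 (0.856 to 1.48). In the lists as deposited, whose lengths differ, the ratios in females and males were 1.04 and 0.955 at immunoglobulin V segments, 1.22 and 1.33 at Trbv, 0.763 and 0.835 at Olfr, and 1.47 and 1.86 at Trav. Vmn2r then had 39 peaks in del/del and 48 in fl/fl females, and 32 in del/del and 40 in fl/fl males. Gained peaks at the immunoglobulin V segments numbered 7 of 30 candidates in females and 2 of 23 in males. They were 0 of 2 and 0 of 3 at Trbv, 1 of 17 and 0 of 18 at Vmn2r, and 4 of 51 and 3 of 45 at Olfr. Over all candidates 1.13% were gained in females and 0.837% in males. Candidates of the fl/fl lists numbered 10 in females and 13 in males at immunoglobulin V segments, 1 and 2 at Trbv, 14 and 17 at Vmn2r, and 32 and 30 at Olfr. Without the limit to strong peaks, the del/del peaks absent from the fl/fl list were 5 of 9 in females and 4 of 8 in males at Trbv, shares close to those at Trav. In females and males they were 17 of 46 and 12 of 42 at immunoglobulin V segments, 10 of 32 and 9 of 32 at Vmn2r, and 48 of 135 and 43 of 116 at Olfr. Whether the Trav ratios of 1.95 and 2.09 differ from these was not tested, as each group has 1 list.

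Genes that carry out or regulate V(D)J recombination had peaks in both genotypes. Of 19 such genes, 13 had an end peak in del/del females, 12 in fl/fl females, 12 in del/del males and 14 in fl/fl males, and their peaks numbered 109 and 118 in del/del and fl/fl females and 111 and 118 in del/del and fl/fl males. An end peak stood in every list at the DNA end joining genes Xrcc5, Prkdc, Dclre1c, Lig4, Xrcc4 and Nhej1. The transcription factor genes Tcf3, Tcf12, Tcf7, Lef1 and Bcl11b also had an end peak in every list. Rag2, Dntt, Gata3, Runx1 and Runx3 had none in any list. Bcl11b, a transcription factor gene of T cells that is also used in the brain, had 16 peaks in del/del females and 17 in fl/fl females, and 13 in del/del males and 13 in fl/fl males. Rag1, the recombinase gene, had an end peak in del/del males and in fl/fl males and in neither female list, with 1 peak in del/del females, 1 in fl/fl females, 1 in del/del males and 2 in fl/fl males. T-cell markers had 26 peaks in del/del females and 24 in fl/fl females, and 22 in del/del males and 24 in fl/fl males.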

How the data were processed

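Each of the 4 groups had 1 peak list, called by the authors with MACS 2.1.0.20140616 on pooled libraries, per the file headers. The submitters' processing notes also name Bowtie2 2.2.5, Trim Galore 0.4.0, edgeR, Picard, bcl2fastq and SAMtools, and the build mm10. The deposited columns used were pileup (a signal), fold enrichment over background (a ratio) and −log10 q. From these, peaks on the main chromosomes were ranked by −log10 q, with ties ordered by pileup, cut to the 88159 of the shortest list and joined to RefSeq symbols of GRCm38.p6, using pandas 2.3.3 and scipy 1.17.1. An overlap of at least 1 bp counted as shared. The cut evens out list length and admits weaker peaks from some lists.

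Samples were grouped by their titles and sex fields, since the description of the male libraries reads female. Named in full were segments nearest to peaks gained in both sexes, the 6 strongest gained in each sex, the 6 strongest in all 4 lists, and the repeat families that carry them; other values name families or exceptions. The Trav segments and the gene lists were chosen with earlier results of these data known. The parts of the array, the window before segment starts and the setting without copied segments were chosen after the peaks were seen. The overlap rule behind the gained and lost calls was tested on altered copies of the fl/fl lists, with peaks removed or shifted. The other steps were not tested this way. With 1 list per group no test was possible.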

Additional observations from a re-analysis of the deposited data

Results flagged for a closer look

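The peak just before Trdv1, nearest to Trav21-dv12, differed in opposite directions in the sexes by rank alone. Its rank in del/del females minus that in fl/fl females was -2010, a better rank in the del/del list. Its rank in del/del males minus that in fl/fl males was 4394, a worse rank in the del/del list. The other values were lower in the del/del list in both sexes: fold enrichment was 6.00 in del/del and 6.59 in fl/fl females and 7.01 in del/del and 8.02 in fl/fl males, and −log10 q was 31.0 in del/del and 38.4 in fl/fl females and 24.4 in del/del and 36.7 in fl/fl males. The difference between the sexes was not tested, as each group has 1 pooled list.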

How the results depend on the processing

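Of 88 alternative values 64 stayed close to the reported value and 24 moved. Only the ratios of peak numbers and the differences in median rank have a direction, and none of these reversed. The gained and lost counts and the shares with a counterpart could only stay close or move. The ratio of Trav peaks in del/del to fl/fl lists moved to 5.38 in females with lists of 44079 peaks, to 4 in males (4 peaks against 1) with summits inside segments only, and to 1.14 in males at segments without a copy, a setting added after seeing the data. Summits inside segments gave no ratio in females, where the equal-length fl/fl list had none. As deposited, summits inside segments numbered 5 in del/del and 8 in fl/fl females, and 4 in del/del and 3 in fl/fl males. This combination of settings is outside the 88 values. Otherwise the ratios lay between 1.33 and 2.90. Gained counts in both sexes, in females and in males were 0, 0 and 0 when peaks needed a −log10 q of 10 or more, 0, 2 and 0 with lists of 44079 peaks, 0, 0 and 0 inside segments, 2, 9 and 5 when ranked by pileup, 20, 38 and 37 without the limit to strong peaks, and 0, 2 and 0 at segments without a copy. Ranking by fold enrichment gave 8 in both sexes. With the limit on −log10 q, candidates were also cut to the stronger ones among the peaks left. The 0 counts under it do not show that no peak of that strength was absent from fl/fl lists. The peak 1373 bp after the start of Trav4n-4 had a −log10 q of 24.8 in del/del females and 19.0 in del/del males. Neither fl/fl list as deposited held it. Lost counts were 2 in females and 2 in males without the limit to strong peaks. Gained counts and the size of the ratios thus depend on the limits set, while the ratios among the 88 values all lay above 1. At segments without a copy their intervals, 0.406 to 4.66 in females and 0.362 to 3.70 in males, include 1. The cut to equal length sets how weak the kept peaks are, since the weakest kept had a −log10 q of 1.39 in del/del males and 6.59 in fl/fl females. No paired analysis was possible because each group is 1 pooled list whose columns carry no replicate numbers, and leaving out a replicate could not be run for the same reason.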

Other observations

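Several repeated sites lay away from segment starts. Beside Trav14d-1 a peak stood 2594 bp after the start in del/del females, 2597 bp in fl/fl females, 2601 bp in del/del males and 2590 bp in fl/fl males, and its fold enrichment was 3.78, 3.89, 3.29 and 3.71 in that order. The copy Trav14n-1 had its peak at 2554, 2548, 2570 and 2546 bp in the same order of lists, so this site was in all 4 lists at both copies.

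A peak about 1.7 kb before Trav16 was also in all 4 lists, with 4.11 in del/del females, 4.21 in fl/fl females, 4.86 in del/del males and 4.07 in fl/fl males. Its copy Trav16n had 3.94 and 3.41 in del/del and fl/fl females, and 4.86 in del/del males with none in fl/fl males. The copy Trav16d-dv11 had 4.11 and 3.25 in del/del and fl/fl females and no peak in either male list.

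Beside Trav12d-1 a peak stood 3609 bp after the start in del/del females, with 3.29, and 3632 bp after it in del/del males, with 4.86, and there was none in fl/fl lists. At Trav12n-1 it was in the del/del female list alone, with 3.61 at 3603 bp. At Trav12-1 it had 3.94 and 3.73 in del/del and fl/fl females, and 4.43 in del/del males with none in fl/fl males. A peak 1109 bp after the start of Trav8-1 in del/del females had 3.04, and in del/del males the same site had 3.43, with none in fl/fl lists.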
